A study of Danio rerio with 2 samples.

Results

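The barcodes described here were chosen by their content of cardiomyocyte transcripts, among single-cell transcriptomes of regenerating zebrafish ventricles. Chosen barcodes held at least 10 summed unique molecular identifiers (UMIs) of 8 cardiomyocyte genes, myl7, cmlc1, actc1a, acta1b, mustn1b, csrp3, desma and ckma, and at least 3 of these genes. In addition, the share of these genes among the UMIs outside the mitochondrial genome was at least 4 times the share over all barcodes kept after filtering. This gate held 574 of the 10763 kept barcodes of the series, 278 of 3589 in wild type and 296 of 7174 in the mutant library. The remaining 10189 kept barcodes are called the other kept barcodes.

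Ventricles of the AB strain were cryoinjured and collected 120 hours later (hours post-cryoinjury, hpci). One library came from wild types and one from cd74a;cd74b double mutants, which carry the alleles bns454 and bns456, small deletions generated with CRISPR-Cas9 in both zebrafish genes for the MHC class II invariant chain. Each library pooled injured and border zone tissue from 4 ventricles, those of 2 females and 2 males. The pooled fish cannot be told apart, and no uninjured heart and no remote myocardium was part of the design. With 1 library per genotype no difference between genotypes has a replicate check, no test between genotypes was made, and genotype cannot be told apart from pool or library preparation.

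Cardiomyocytes contract through sarcomeres, in which myosin of the thick filament pulls on actin of the thin filament, under the control of calcium released from the sarcoplasmic reticulum. After injury, zebrafish cardiomyocytes next to the wound partly disassemble their sarcomeres, re-express genes of the embryonic heart such as the natriuretic peptides, turn from fatty acid oxidation towards glycolysis and divide. The gate selects on contractile genes, so cells that had lost most of these transcripts would not enter it.

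The libraries held 7395919 and 22991961 UMIs, in 4607 wild-type and 15142 mutant barcodes before filtering, and the gated barcodes were shallow. The median gated barcode held 891 UMIs outside the mitochondrial genome in wild type and 692.5 in the mutant library (range 415 to 6399 and 416 to 8656), and 475 and 364 detected genes. Mitochondrial transcripts took a median of 19.5% and 38.6% of the UMIs of a gated barcode, against 14.7% and 21.7% in the other kept barcodes. Ribosomal protein genes took a median of 23.2% and 34.4% of the UMIs outside the mitochondrial genome. Summed over the gate, 298556 wild-type and 262042 mutant UMIs were available for the comparisons below, which are given as CPM, counts scaled to 1000000 UMIs outside the mitochondrial genome. Intervals are exact, at 95%, and cover counting error only. Of 15 barcode sequences present in both libraries, 2 were gated in either.

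Gated barcodes made up 7.75% (6.89 to 8.67) of the kept wild-type barcodes and 4.13% (3.68 to 4.61) of the kept mutant barcodes, a ratio of mutant over wild type of 0.533 (0.451 to 0.630). The 8 genes took 0.373% of the UMIs of all kept barcodes, which set the limit at 1.49%. In the wild-type library the distribution of this share had a shoulder above the limit and a separate rise at the right end, whereas in the mutant library a single broad peak ran down across the limit. Just outside it, at 3 to 4 times the overall share, 34 wild-type and 101 mutant barcodes met the conditions on UMIs and genes. Just inside, at 4 to 5 times, 41 and 95 barcodes were gated, which is 14.7% and 32.1% of the gate. At 16 or more times the overall share there were 67 wild-type and 26 mutant barcodes, 24.1% and 8.78% of the gate. The gate is therefore a range of a continuous measure, and the mutant gate lay closer to its lower end, with a median of 5.62 times the overall share against 7.56 times in wild type.

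**Figure D1:**
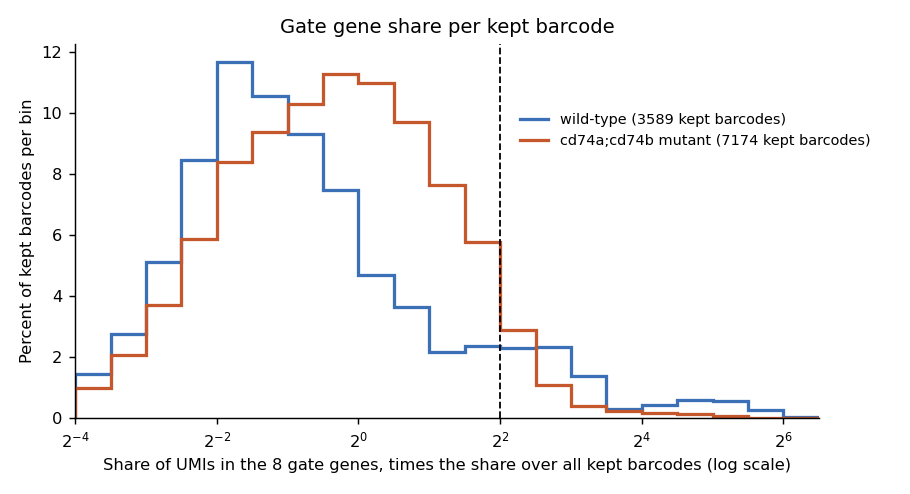
Percent of kept barcodes per bin (y) against the share of UMIs in the 8 gate genes, as a multiple of the share over all kept barcodes (x, log scale), for the wild-type and the mutant library. Barcodes below the drawn range are left out, and the dashed line marks the gate at 4 times. Wild-type barcodes form a small separate rise at 16 or more times, where 67 wild-type and 26 mutant barcodes lie.

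The label of cardiomyocyte held for the upper end of the gate and less clearly for its lower end. At 16 or more times the overall share, markers of fibroblasts and epicardium (collagens and other matrix genes) had a median share of 0.118% per wild-type and 0.0547% per mutant barcode, and the median of the macrophage markers was 0 in both. At 4 to 5 times, the fibroblast and epicardial markers had a median of 1.44% and 1.04%, above its median in the other kept barcodes of 1.06% and 0.816%. Over the whole gate, all 20 fibroblast and epicardial markers and all 18 macrophage markers had at least 1 UMI in each library. The summed fibroblast and epicardial markers stood at 11666 CPM in wild type and 9613 CPM in the mutant library, the macrophage markers at 4006 and 3408 CPM, and the endothelial and endocardial markers at 3155 and 4789 CPM. In the other kept barcodes these sums were higher, at 18417 and 10860, 8605 and 4167, and 4610 and 7750 CPM. The median share per barcode of each of these lists was instead higher in the gate, in both libraries. Globin and other erythroid markers stood at 10025 and 5491 CPM, above their 2128 and 1743 CPM in the other kept barcodes. Of 15 markers of T cells and neutrophils, 8 and 7 were at 0 in the gate. Transcripts of other cells can enter a barcode as free RNA or by 2 cells sharing a droplet, doublets were left in, and their part in the results below was not tested. Barcodes are therefore called gated, not cardiomyocytes, and most lists are also given by the share of gate genes. That of the citrate cycle is not.

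Of the genes that chose the barcodes, given as a description, myl7, the regulatory myosin light chain of the heart, was the most abundant, at 25536 CPM in wild-type and 16058 CPM in mutant gated barcodes. The myosin light chain cmlc1 followed with 11884 and 12773 CPM. The striated muscle actin acta1b had 6528 and 3599 CPM, and actc1a (ENSDARG00000042535) had 1601 and 603 CPM. Actin genes are near-identical copies of each other, so reads may have been split between them and their single values are uncertain. Creatine kinase ckma had 2207 and 1893 CPM. The small muscle protein gene mustn1b had 1166 and 836 CPM, the Z-disc LIM protein gene csrp3 had 854 and 565 CPM, and desmin (desma) had 834 and 366 CPM. Summed over the gate, all of these but cmlc1 were lower in the mutant library. These genes also chose the barcodes, and 67 wild-type but 26 mutant barcodes lay at 16 or more times the overall share. The sums therefore give no level at a matched position in the gate. By position, myl7 had 7859 CPM in wild type and 7872 CPM in mutant barcodes at 4 to 8 times. At 8 to 16 times it had 15305 and 18379 CPM, and at 16 or more times 68756 and 47269 CPM. In each of these ranges acta1b and actc1a were lower in the mutant library. A median wild-type gated barcode held 25 UMIs of 6 of the 8 genes, and a median mutant one 15 UMIs of 4.

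Other genes concentrated in the gated barcodes followed muscle structure and energy supply. Since the barcodes were chosen on correlated genes, these values describe the gate and test nothing. Of the 1089 genes with at least 50 UMIs in the gate, 304 (27.9%) were at least 2-fold and 26 (2.39%) at least 8-fold above the other kept barcodes in both libraries, and 11 (1.01%) were at least 2-fold below in both. All 28 measured sarcomere genes outside the gate list, 14 of 15 genes of the citrate cycle, 56 of 85 nuclear genes of oxidative phosphorylation and none of 8 AP-1 genes were at least 2-fold above. Genes with at least 100 UMIs in the gate, without gate genes and ribosomal protein genes, were ranked by the smaller-of-both log2 difference. Below that limit some genes had differences as large, such as rrad with 35 and 32 UMIs (3.69). Among the first 12 of the ranking were the natriuretic peptide gene nppb (3.21 in wild type and 3.21 in mutant) and troponin C (tnnc1a, 4.47 and 3.09). The skeletal actin acta1a (4.36 and 3.34) and the heart-type cytochrome oxidase subunit gene cox7a1 (4.22 and 3.25) were also among the 12. So were aldolase aldoab (4.33 and 3.03) and the dehydrogenase gapdh of glycolysis (4.24 and 2.97). The others were si:dkey-164f24.2, cox5b2, nme2b.2, the small heat shock protein gene hspb6, ndufa4 and ACTC1.

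With the same limit of at least 100 UMIs, the genes least present in the gate relative to the other kept barcodes were general to non-muscle cells. Among them were the thymosins tmsb1 and tmsb2, the ferritin gene fthl27 (ENSDARG00000031776), the AP-1 partner jdp2b, s100a10b and the endoplasmic reticulum cyclophilin ppib. A use of muscle paralogues set the gate apart within each library. The heart and muscle form cox6a2 had 6.03 UMIs for each UMI of the ubiquitous cox6a1 in wild-type gated barcodes and 5.09 in mutant ones, against 0.297 and 0.487 in the other kept barcodes. For cox7a1 over cox7a2a these ratios were 3.83 and 2.54 in the gate and 0.163 and 0.314 outside. In glycolysis, gapdhs had 0.170 and 0.144 UMIs per UMI of gapdh in the gate, but 6.69 and 1.62 in the other kept barcodes.

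The targeted genes were read first in the comparison of genotypes. In gated barcodes, cd74a had 264 UMIs in wild type (884 CPM) and 13 in the mutant library (49.6 CPM), a log2 ratio of mutant over wild type of -4.16 (-5.08 to -3.36). The paralogue cd74b had 159 and 14 UMIs, or 533 and 53.4 CPM. The 3' tags do not cover the deleted bases near the start of the genes, so they show the amount of transcript and not the mutations. These ratios matched the direction of the labels and were close to those in the other kept barcodes (-3.76 for cd74a and -3.31 for cd74b). When each barcode was thinned to 500 UMIs, cd74a was detected in 29.7% of wild-type gated barcodes and 27.4% of the other kept wild-type barcodes, with 43.2% and 36.3% before thinning. The other kept barcodes had a median of 1129 UMIs outside the mitochondrial genome in wild type and 1071 in the mutant library. The share in the gate was thus close to that among the other kept barcodes, which include macrophages, and the parts of free RNA, doublets and expression in it were not tested. In wild type cd74a stood at 1189 CPM at 4 to 8 times the overall gate share, 1020 CPM at 8 to 16 times and 182 CPM at 16 or more times. For cd74b these values were 671, 624 and 182 CPM. Among barcodes at 16 or more times the overall gate share, each gene had 14 UMIs in wild type and 0 in the mutant library. Of the MHC light chain b2m, gated barcodes held 1125 CPM in wild type and 603 CPM in the mutant library (-0.90). Of 9 measured antigen presentation genes, which include cd74a and cd74b, 7 were lower and 2 higher in the mutant gate, beside 772 lower and 317 higher of all 1089 genes. Their median was -0.37, and that of all genes -0.32. The summed log2 ratio of the 9 genes was -0.98 in the gate and -0.97 in the other kept barcodes. In the gate cd74a and cd74b held 264 and 159 of the 1221 wild-type UMIs in this sum, and 13 and 14 of the 542 mutant UMIs. The sum therefore includes the low counts of the targeted genes themselves.

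Across all 1089 genes, 772 were lower and 317 higher in the mutant gate, with a median log2 ratio of -0.32. At least 2-fold lower were 138 genes (12.7%), and 33 (3.03%) were at least 2-fold higher. Over the same genes the median in the other kept barcodes was -0.27. Ribosomal protein genes took a larger share of the mutant UMIs outside the mitochondrial genome, as given above. Scaled by the median of the gene ratios instead of the UMI totals, 58 genes were at least 2-fold lower and 67 at least 2-fold higher. Under that scaling the summed sarcomere log2 ratio given below became -0.41, that of calcium handling -0.21, of border zone genes -0.35, of glycolysis -0.20, of nuclear oxidative phosphorylation 0.48, of AP-1 -0.26 and of heat shock -0.49, so no list changed direction.

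Sarcomere transcripts were lower in the mutant gate, gene for gene. Of the 55 sarcomere genes in the tables outside the gate list, 28 reached 50 UMIs, and all 28 were lower in the mutant library, 10 of them at least 2-fold (12.7% of all genes were), with a median of -0.80. For 25 the counting interval of the log2 ratio lay below 0. Together they made up 4.60% of wild-type and 2.78% of mutant gated UMIs, a log2 ratio of -0.73 (-0.77 to -0.68). In the other kept barcodes the same genes stood at a log2 ratio of 0.54, in the opposite direction. The difference between these ratios was not tested. As the 50 UMIs may come from wild type alone, the number of genes that passed is no support for the direction. The same limit holds for the lists below.

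**Figure D2:**
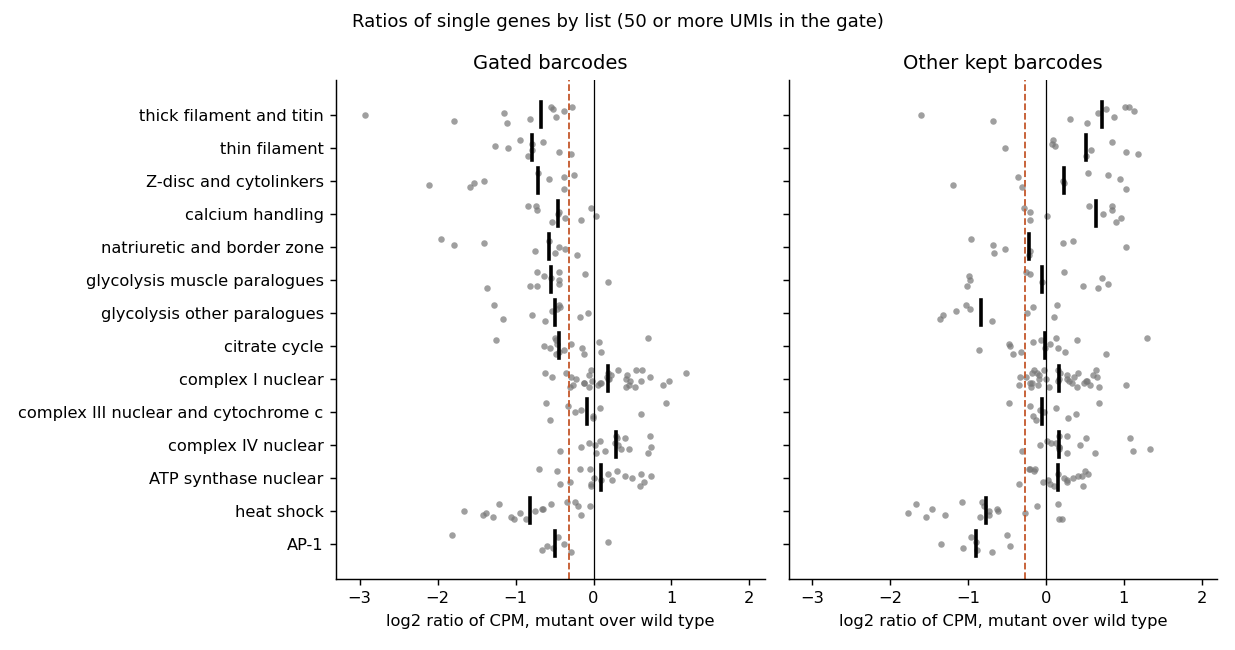
Log2 ratio of CPM, mutant over wild type (x), of each gene with 50 or more UMIs in the gate, by gene list (y), in gated barcodes (left) and in the other kept barcodes (right). Each point is a gene, black bars are list medians, and the dashed line is the median of all 1089 genes, -0.32 on the left and -0.27 on the right. Sarcomere lists lie to the left of 0 in the gate and mostly to the right of it outside.

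In the thick filament list, all 10 measured genes were lower in the mutant gate, with a summed log2 ratio of -0.57. The most abundant was the heavy chain myh7l, at 8457 CPM in wild type and 6060 CPM in mutant barcodes (-0.48). Its relative myh7 stood at 1990 and 576 CPM, a log2 ratio of -1.79 (-2.06 to -1.53). Titin, the spring that spans the sarcomere, is encoded by adjacent genes, and ttn.1 (-0.38) and ttn.2 (-0.28) were among the least different. Cardiac myosin-binding protein C (mybpc3) stood at 2278 and 1565 CPM (-0.54). The histone methyltransferase gene smyd1b, whose product is needed in zebrafish for myosin folding and thick filament assembly, had 52 UMIs in wild type and 6 in the mutant gate, a log2 ratio of -2.93 (-4.44 to -1.71).

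All 9 measured thin filament genes were lower too, with a summed log2 ratio of -0.82. Tropomyosin tpm4a, which covers the myosin-binding sites of actin, stood at 10929 CPM in wild type and 6297 CPM in mutant gated barcodes (-0.80). Troponin C (tnnc1a), the calcium sensor of the thin filament, stood at 3711 and 1549 CPM, a log2 ratio of -1.26 (-1.43 to -1.09). The tropomyosin-binding troponin T (tnnt2a), at 2103 and 1549 CPM, had a log2 ratio of -0.44. The inhibitory troponins tnni1b (-0.65) and tnni4a (-0.84) lay between them. With each barcode thinned to 500 UMIs, tnnc1a was detected in 79.5% of wild-type and 48.9% of mutant gated barcodes, and in 9.36% and 11.6% of the other kept barcodes. For myh7 these shares were 54.8% and 24.3% in the gate and 8.5% and 6.89% outside. Without thinning the gated shares were 88.8% and 61.5% for tnnc1a and 68.3% and 32.8% for myh7. After thinning, 263 and 280 gated barcodes were deep enough, and 15 and 16 were left out.

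The Z-disc anchors the thin filaments and couples them to the cytoskeleton, and its 9 measured genes were all lower, with a summed log2 ratio of -1.02 and a median of -0.71, against a median of -0.80 for the thin filament genes. Telethonin (tcap), which caps titin at the Z-disc, had 148 UMIs (496 CPM) in wild type and 30 (114 CPM) in mutant barcodes, a log2 ratio of -2.11 (-2.73 to -1.54). The LIM-domain gene ldb3a stood at 1172 and 405 CPM (-1.54), while its paralogue ldb3b had a log2 ratio of -0.57. The intercalated disc gene xirp1 stood at 526 and 198 CPM (-1.41), and the small heat shock gene hspb7, whose product binds filamin in mammals, at 218 and 72.5 CPM (-1.59).

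The size of these differences followed the position of a barcode in the gate. For barcodes of 4 to 8 times the overall gate share (152 wild-type and 225 mutant) the summed sarcomere log2 ratio was -0.99, at 8 to 16 times (59 and 45 barcodes) it was -0.42, and at 16 or more times (67 and 26 barcodes) it was -0.12 (-0.20 to -0.05). Sarcomere genes took 4.19%, 4.68% and 5.28% of the wild-type UMIs in these bins, and 2.11%, 3.51% and 4.85% of the mutant UMIs. The number of the 28 genes that were lower in the mutant library went from 28 to 23 to 16, beside 768, 686 and 644 of all 1089 genes. These bins were chosen after seeing the data, and they use the measure that the gate used. The fibroblast and epicardial markers fell along the same bins, from 1.57% to 1.24% to 0.25% of wild-type and from 1.23% to 0.645% to 0.0688% of mutant UMIs. The ribosomal share of the UMIs outside the mitochondrial genome was 24.4%, 23.0% and 25.7% in wild type. In the mutant library it was 36.3%, 34.2% and 29.4%. The part of these in the sarcomere difference was not tested.

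**Figure D3:**
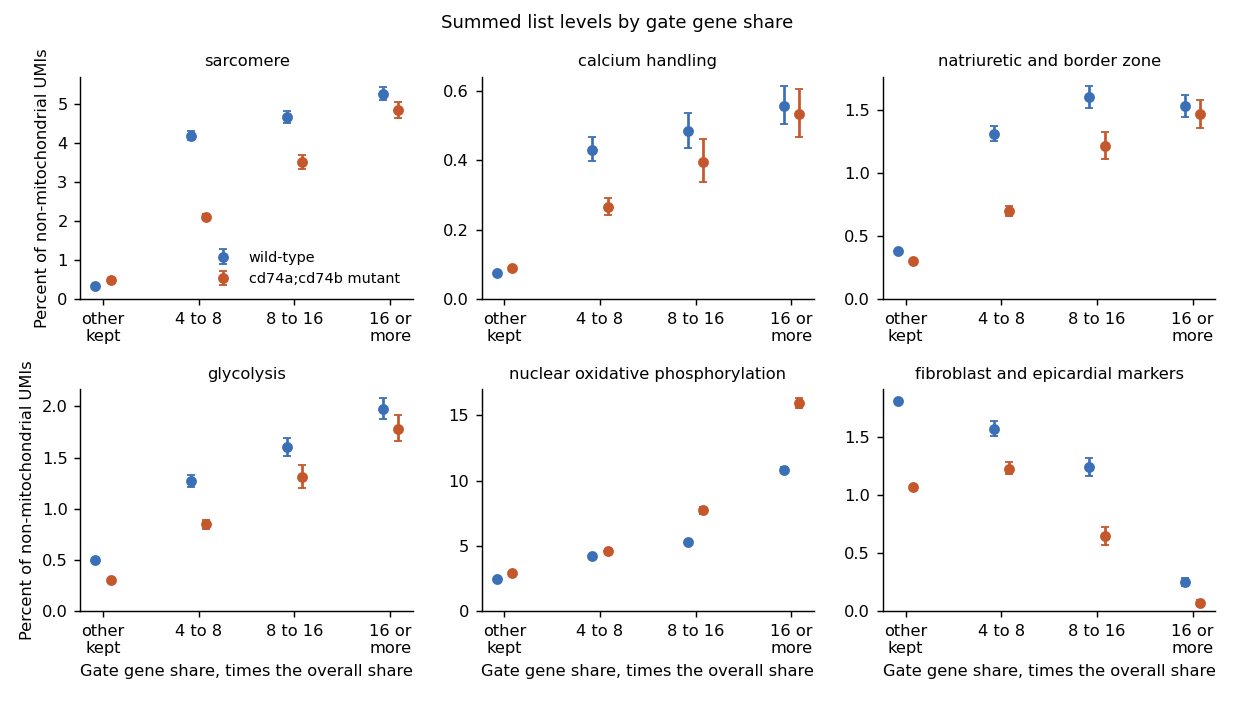
Summed level of 6 gene lists, as percent of UMIs outside the mitochondrial genome (y), in other kept barcodes and in gated barcodes by the share of gate genes (x), for wild-type and mutant libraries. Bars are exact 95% Poisson intervals. Sarcomere and calcium handling genes differ between the libraries at 4 to 8 times and lie close together at 16 or more times, where nuclear oxidative phosphorylation genes are higher in the mutant library.

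In the barcodes richest in gate genes, the sarcomere genes fell into those near or above wild type and those still below it. Among those near or above it were myh7l, mybpc3, tnnt2a and ttn.2, with log2 ratios of 0.40, 0.28, 0.13 and 0.23. Below wild type were smyd1b (25 UMIs in wild type and 2 in mutant, -2.82), tcap (38 and 7 UMIs, -1.62), myh7 (97 and 19 UMIs, -1.53), xirp1 (-1.18), acta1a (-1.14), ldb3a (-1.07), tnnc1a (-0.66) and tpm4a (-0.28). Of these, tcap, smyd1b and myh7 were also lower in the other kept barcodes of the mutant library (-1.19, -1.60 and -0.68), where most sarcomere genes were higher. The sum of the sarcomere genes was therefore close between the libraries in these barcodes, while single genes lay on both sides of 0. Of 10 thick filament genes 7 were higher, with a median of 0.20. The counting interval lay above 0 for 1 of the 10 and below 0 for 2. Of 9 thin filament genes 8 were lower, with a median of -0.57, and for 3 the interval lay below 0. Of 9 Z-disc genes 5 were lower, with a median of -0.19, and for 4 the interval lay below 0. Of all 1089 genes 644 were lower in these barcodes, with a median of -0.21. Differences between these parts of the sarcomere were not tested. In these barcodes 7 of the 28 sarcomere genes were at least 2-fold lower, beside 243 of all 1089 genes (with 0.5 UMIs added to each sum). The share of sarcomere genes was thus close to that of all genes.

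**Figure D4:**
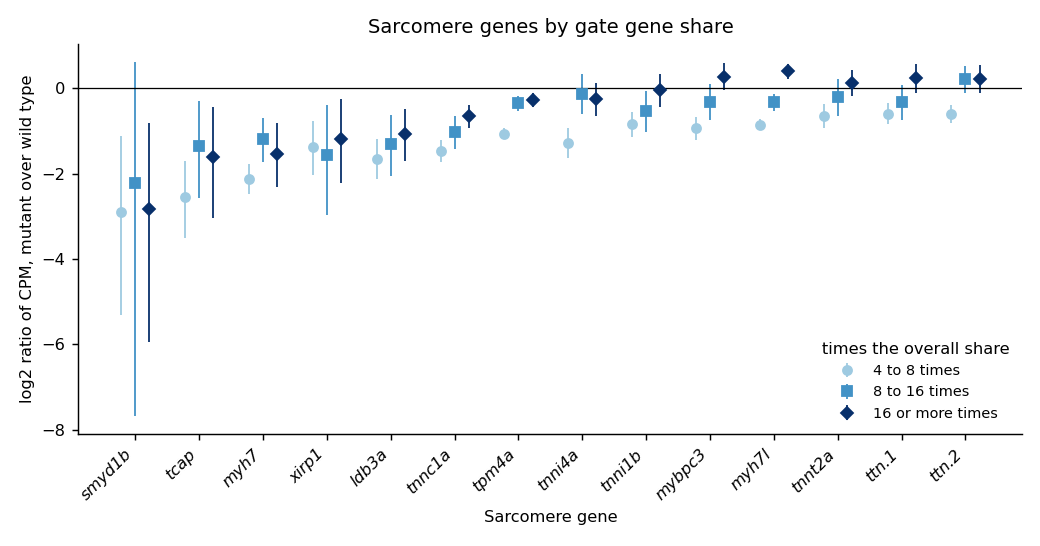
Log2 ratio of CPM, mutant over wild type (y), of 14 sarcomere genes (x) in gated barcodes of 4 to 8, 8 to 16 and 16 or more times the overall share of gate genes. Bars are exact 95% intervals for counting error. Genes on the left, such as tcap and myh7, lie below 0 in all bins, and genes on the right, such as myh7l and mybpc3, move to 0 or above.

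Ratios between related genes within a library do not depend on how its UMIs were scaled. These pairs were chosen after seeing the data. In gated barcodes myh7 had 0.235 UMIs for each UMI of myh7l in wild type (0.215 to 0.257) and 0.0951 in the mutant library (0.0799 to 0.112). The same pair stood at 0.277 and 0.0938 in the other kept barcodes, and at 0.184 and 0.0942 in the barcodes removed by the filters. The light chains differed in the opposite way, with 0.465 UMIs of cmlc1 per UMI of myl7 in wild-type and 0.795 in mutant gated barcodes. Both are gate genes, so their values took part in choosing and leaving out barcodes. At 4 to 8, 8 to 16 and 16 or more times the overall gate share, cmlc1 had log2 ratios of 0.40, 0.63 and 0.37. Those of myl7 were 0.00, 0.26 and -0.54, so the gap between the light chains varied with position in the gate. In the other kept barcodes cmlc1 over myl7 was 0.596 and 0.916. For ldb3a over ldb3b the ratio was 1.93 in wild type and 0.991 in mutant gated barcodes. For tcap over csrp3, which is a gate gene as well, it was 0.58 and 0.203. The titin genes kept nearly the same balance, with ttn.1 at 0.824 and 0.767 UMIs per UMI of ttn.2. Differences in the balance of myosins were thus present in gated, other kept and removed barcodes alike.

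**Figure D5:**
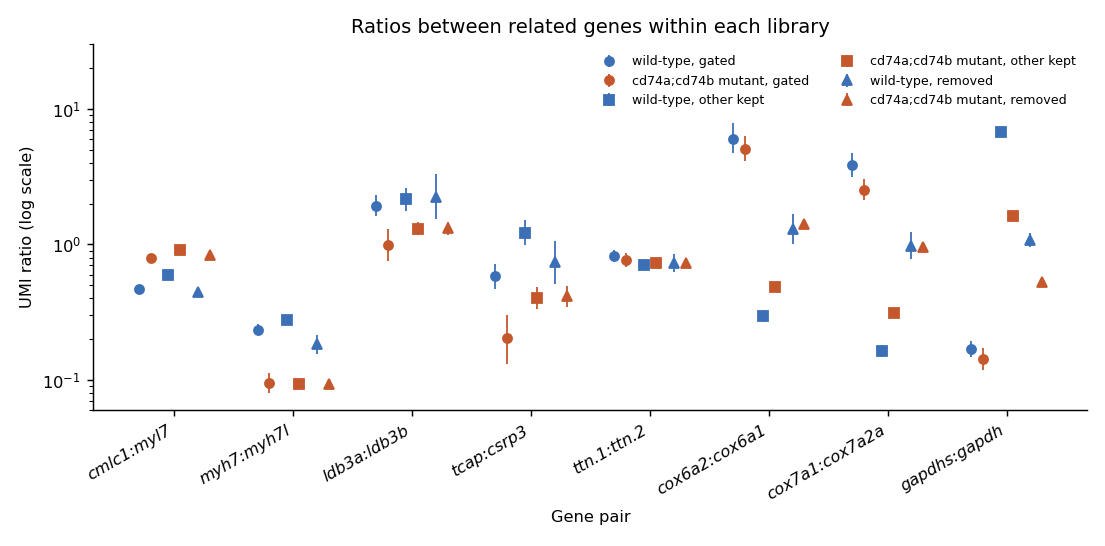
UMI ratio of gene pairs within each library (y, log scale) in gated, other kept and removed barcodes, for wild-type (blue) and mutant (orange) libraries, with exact 95% intervals. The myh7 to myh7l ratio is lower and the cmlc1 to myl7 ratio higher in the mutant library in every set, whereas the cox6a2, cox7a1 and gapdhs pairs separate gated from other kept barcodes.

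Genes of calcium handling were lower in the mutant gate, though none reached 2-fold. Of 10 measured genes 9 were lower, beside 772 of all 1089 genes. The summed log2 ratio was -0.53 (-0.65 to -0.41), against 0.25 in the other kept barcodes. The calcium pump of the sarcoplasmic reticulum, atp2a2a, stood at 1447 CPM in wild type and 809 CPM in mutant gated barcodes (-0.84), and its inhibitor phospholamban (pln) at 1162 and 901 CPM (-0.37). Calsequestrin (casq2), which stores calcium in the reticulum, stood at 720 and 496 CPM, and the release channel ryr2b had a log2 ratio of -0.46 with an interval that included 0. At 16 or more times the overall gate share the summed log2 ratio was -0.06 (-0.30 to 0.17), with atp2a2a at 0.22 and pln at 0.00.

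Genes linked to the border zone were lower as well, all 9 that were measured, beside 772 of all 1089 genes. At least 2-fold lower were 3 of them (12.7% of all genes were). The genes tnnt2a, myh7 and xirp1 also belong to the sarcomere lists, so these results overlap. The summed log2 ratio of the border zone list was -0.67 (-0.74 to -0.60). In the other kept barcodes it was -0.31 (-0.34 to -0.28), in the same direction. Of the natriuretic peptide genes, nppa stood at 3537 CPM in wild type and 2381 CPM in mutant gated barcodes (-0.57), and nppb, which marks the zone next to the wound, at 2194 and 1900 CPM (-0.21, -0.38 to -0.04). The direction of nppb depended on the barcodes used, with a log2 ratio of 0.47 (0.28 to 0.67) at or below 30% mitochondrial UMIs and -0.77 (-1.18 to -0.35) above it. The growth factor gene mdka had a log2 ratio of -0.37, the actin-binding gene tagln one of -0.75, and smooth muscle actin acta2 stood at 620 and 160 CPM (-1.95). Both tagln and acta2 are also markers of mural cells, and in wild type a single barcode held 59 of the 185 UMIs of acta2. Above 30% mitochondrial UMIs acta2 had a log2 ratio of -0.078. The chromatin protein gene hmga1a, induced in zebrafish border zone cardiomyocytes, had only 32 and 20 UMIs. In the barcodes richest in gate genes the list had a log2 ratio of -0.06 (-0.20 to 0.08), with nppb at 0.29 and nppa at -0.12.

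The natriuretic peptides varied between barcodes. Thinned to 500 UMIs, nppa was detected in 71.1% of wild-type and 60.7% of mutant gated barcodes (18.1% and 22.6% outside), and nppb in 39.9% and 38.2% (7.86% and 10.8% outside). Both were detected together in 29.7% and 22.1%, and neither in 18.6% and 23.2%. Detection of nppb was about as frequent with nppa as without it, at 41.7% and 35.5% in wild type and 36.5% and 40.9% in the mutant library. The UMIs of nppb were concentrated, with 69.8% of them in the 28 wild-type barcodes that held most, and 67.1% in the 30 mutant ones. For nppa those shares were 38% and 41.8%.

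Among cardiac transcription factors, 4 of 15 genes in the tables reached 50 UMIs. All 4 were lower in the mutant gate, beside 772 of all 1089 genes. As the 50 UMIs may come from wild type alone, this number is no support for the direction. Without that limit, all 15 genes together stood at 834 CPM in wild type and 427 CPM in the mutant gate. In the other kept barcodes the 4 genes had a median log2 ratio of 0.08 and a summed one of -0.14 (-0.29 to 0.01). The homeobox factor nkx2.5, which specifies cardiac fate, had 48 UMIs in wild type and 14 in the mutant library (161 and 53.4 CPM, -1.59), hand2 51 and 20 UMIs (-1.16), and mef2ca 43 and 18 UMIs (-1.07). At 4 to 8 times the overall gate share the median of the 4 genes was -1.47. At 16 or more times 2 were lower and 2 higher, with a median of 0.25. Genes of the cell cycle were near the limit of detection. Of 28 in the tables only the tubulin gene tubb2b reached 50 UMIs, the replication clamp gene pcna had 26 and 14 UMIs, and mki67, which is expressed in cycling cells, 4 and 1, so that proliferation could not be read at this depth.

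Glycolysis genes were lower in the mutant gate. Of 21 measured genes 20 were lower, beside 772 of all 1089 genes. The summed log2 ratio was -0.52 (-0.59 to -0.45), against -0.69 in the other kept barcodes. The medians were -0.53 and -0.24. The list was split into muscle and other paralogues, which overlapped in their level in the gate. At least 2-fold above the other kept barcodes in both libraries were 10 of 11 muscle paralogues (not pgk1) and 5 of 10 others (among them hk1), beside 304 of all 1089 genes. The muscle paralogues had a summed log2 ratio of -0.48 in the gate and -0.24 outside it, and the other paralogues -0.64 and -1.12. These differences were not tested. The dehydrogenase gapdh stood at 4940 CPM in wild type and 3389 CPM in mutant gated barcodes (-0.54), with a log2 ratio of 0.72 in the other kept barcodes. Pyruvate kinase pkma stood at 807 and 519 CPM (-0.64), hexokinase hk1 at 325 and 240 CPM (-0.43), phosphoglycerate mutase pgam1a at 322 and 233 CPM (-0.47), and the kinase pgk1 at 281 and 206 CPM (-0.45). For hk1, pgam1a and pgk1 the interval included 0. Only the enolase eno3 was higher (0.19, -0.08 to 0.45), while its paralogue eno1a was lower (-1.16). Phosphofructokinase pfkpa had 29 and 15 UMIs, the pyruvate kinase paralogue pkmb 24 and 3, and pdk4, which restrains pyruvate oxidation, 16 and 5. For barcodes at 16 or more times the overall gate share the list had a log2 ratio of -0.15 and gapdh one of -0.01.

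Other fuel genes were divided. Myoglobin (mb), which stores oxygen in muscle, was among the most abundant genes, at 11053 CPM in wild type and 5869 CPM in mutant gated barcodes (-0.91). Of 14 genes for myoglobin and fatty acid use, 8 were lower and 6 higher, with a median of -0.04. The fatty acid carrier fabp3 had a log2 ratio of 0.17 and the acyl-CoA synthetase acsl1b of 0.41, while fabp11a, which is also an endothelial marker, had 0.81. The summed log2 ratio of this list was -0.39 (-0.45 to -0.32) over the gate. Of its UMIs, mb alone held 3300 of 4611 in wild type and 1538 of 3092 in mutant barcodes. The sum therefore gives no direction for the fatty acid genes. At 16 or more times the overall gate share the sum was -0.28 (-0.42 to -0.15) and the median 0.50. There mb held 1051 of the 1381 wild-type and 359 of the 642 mutant UMIs. Of 15 citrate cycle genes 12 were lower, beside 772 of all 1089 genes, with a median of -0.44 against -0.32 over all genes. The adenine nucleotide carrier slc25a5, which exchanges ATP for ADP across the mitochondrial membrane, stood at 13080 and 9346 CPM (-0.48).

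Nuclear genes of oxidative phosphorylation departed from the other lists. Of 85 measured genes, 50 were higher and 35 lower in the mutant gate, beside 317 higher and 772 lower of all 1089 genes. The counting interval lay above 0 for 31 of the 85 and below 0 for 8. Their median was 0.09, above the median of all genes. They took 6.20% of wild-type and 6.96% of mutant UMIs, a log2 ratio of 0.17 (0.14 to 0.20). The same genes stood at 0.22 (0.21 to 0.23) in the other kept barcodes and at 0.40 in the removed ones. These differences were not tested. In complex IV, 14 of 17 genes were higher in the gate, 9 of them with an interval above 0. Its summed log2 ratio was 0.22, against 0.27 in the other kept barcodes. Among its genes were cox6c at 1253 and 2068 CPM (0.72) and cox6a2 at 1474 and 2019 CPM (0.45). In complex I, 22 of 35 genes were higher, and ndufa2 (261 and 595 CPM, 1.19) was the only gene of the list past 2-fold. Complex III genes with cytochrome c had a summed log2 ratio of 0.24, although 7 of 10 were lower. Of them, the small subunit uqcrq had a log2 ratio of 0.93 and cytochrome c1 (cyc1) one of -0.60. Among ATP synthase genes the catalytic core atp5f1b, at 2733 and 1687 CPM (-0.70), and atp5fa1 (-0.47) were lower, whereas the small subunit atp5mea was higher (0.74). The difference was larger in barcodes richer in gate genes. At 16 or more times the overall share these genes took 10.8% of wild-type and 15.9% of mutant UMIs, a log2 ratio of 0.55 (0.51 to 0.60), with cox6a2 at 3127 and 6540 CPM (1.06). The mitochondrial share of UMIs in these barcodes was a median of 19.8% and 22.7%, higher in the mutant library there too. The direction over the whole gate turned with the mitochondrial share of the barcodes. At or below 30% mitochondrial UMIs (223 wild-type and 89 mutant barcodes) the log2 ratio was 0.36 (0.33 to 0.40), and above 30% (55 and 207 barcodes) it was -0.13 (-0.18 to -0.07), with cox6a2 at 0.98 and -0.38. Other settings gave log2 ratios of -0.023 as a mean over barcodes, -0.024 with each barcode thinned to 500 UMIs, and -0.046 at a limit of 2 times the overall share.

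Stress genes were lower in the mutant gate and outside it. All 18 measured heat shock genes were lower in the gate, beside 772 of all 1089 genes, and 7 were at least 2-fold lower (12.7% of all genes were). The summed log2 ratio was -0.81 (-0.89 to -0.74), against -0.94 in the other kept barcodes. The muscle-enriched small heat shock gene hspb11 stood at 2907 CPM in wild type and 1256 CPM in mutant gated barcodes (-1.21), but at a log2 ratio of 0.16 in the other kept barcodes. The chaperone hspa8 stood at 2288 and 1095 CPM (-1.06), hspb1 at 2844 and 1820 CPM (-0.64), hsp90ab1 at 2502 and 1481 CPM (-0.76), and the mitochondrial chaperonin hspd1 had 54 and 15 UMIs (-1.66). Of the small heat shock genes in the richest barcodes, hspb1 (0.07) and hspb11 (-0.12) were near wild type, while the chaperones hspa8 (-1.20) and hsp90ab1 (-1.30) were not.

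AP-1 transcription factors are induced rapidly by stress and contribute to opening chromatin in regenerating zebrafish cardiomyocytes. Of 8 measured AP-1 genes 7 were lower in the mutant gate, beside 772 of all 1089 genes. The summed log2 ratio was -0.58 (-0.74 to -0.42), and -0.93 in the other kept barcodes. Of these, atf3 stood at 295 CPM in wild type and 84.0 CPM in mutant gated barcodes (-1.81), fosab at 844 and 534 CPM (-0.66) and junba at 499 and 347 CPM (-0.52). The exception was fosl2, with 28 UMIs in each library. In the barcodes richest in gate genes the AP-1 log2 ratio was -1.41, on 0.195% and 0.0734% of UMIs, the latter 32 mutant UMIs. The fibroblast and epicardial markers stood at -1.86 and the macrophage markers at -2.20 (57 and 7 UMIs) in the same barcodes, and their part in the AP-1 value was not tested.

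Ranked by ratio were the 504 genes with at least 100 UMIs in the gate, without mitochondrial and ribosomal protein genes. The lowest mutant over wild-type ratios belonged, after cd74a and cd74b, to the globin hbba2 (-2.80), tcap, the deubiquitinase usp28 (-1.97), acta2, the nuclear receptor nr4a3 (-1.85) and BX901920.1 (-1.83). Of these, usp28 had 85 and 19 UMIs in the gate and a log2 ratio of 0.09 outside it, whereas nr4a3 (-1.65) and BX901920.1 (-2.02) were lower in both populations. Among the highest were CR318588.1, at 727 CPM in wild type and 11284 CPM in mutant gated barcodes (3.96), the retinol-binding rbp2a (2.13), the granulin grn2 (2.13), zgc:152791 (1.76), CR318588.4 (1.66), ifi45 (1.62) and si:dkey-151g10.6 (1.24). The other kept barcodes stood in the same direction, with log2 ratios of 3.90 for CR318588.1 and 2.26 for rbp2a, which is also an endothelial marker. For grn2, with 26 and 100 UMIs in the gate, the log2 ratio was 0.12 (0.04 to 0.20) in the other kept barcodes and -1.15 in the removed ones.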

How the data were processed

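Per the labels, dead cells were removed after dissociation and each library was prepared on 1 lane with the Chromium 3' v3.1 chemistry. The authors aligned to danRer11 with STARsolo and deposited raw UMI counts per gene and barcode, 4607 wild-type and 15142 mutant barcodes, before filtering; the annotation release is not given in the sources used here. Barcodes with more than 300 genes and at most 70% of UMIs in the 13 mt- genes were kept. All 37 mitochondrial genes were left out of scaling. Symbols came from the deposited gene tables. No columns were left unused.

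UMIs were summed per library over gated barcodes. CPM have exact Poisson intervals, log2 ratios exact conditional intervals, and shares Clopper-Pearson intervals. Lists hold genes with at least 50 UMIs in the gate, without gate genes. No test between genotypes was made. The members and gene lists were chosen with earlier results of these data known. Named genes were the gate genes, genes the study names or the most abundant of each list, the 8 highest and 8 lowest ratios, and the 12 genes most concentrated in the gate. The rankings took genes with at least 100 UMIs in the gate, without mitochondrial and ribosomal protein genes. A gene that this rule names is not reported here. For detection, barcodes were thinned to 500 UMIs. Alternatives to the gate, filters and scaling were tried, and the scripts were tested on simulated data. Python 3.11.15, numpy 2.4.6, scipy 1.17.1, pandas 2.3.3 and matplotlib 3.10.9 were used.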

Additional observations from a re-analysis of the deposited data

Results flagged for a closer look

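The summed sarcomere genes had a log2 ratio of mutant over wild type of -0.73 in gated barcodes and of 0.54 in the other kept barcodes, and the calcium handling genes one of -0.53 and 0.25. Each pair points in opposite directions, and the difference between the populations was not tested.

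Barcodes removed by the filters also held cardiomyocyte transcripts. The conditions of the gate were met by 35 removed wild-type and 195 removed mutant barcodes. All 35 and 188 of the 195 had 300 or fewer genes, and 0 and 19 had more than 70% mitochondrial UMIs.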

How the results depend on the processing

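No paired analysis was possible because each genotype had 1 library, and no analysis without one of the libraries exists for the same reason. The bins of gate share, the split at 30% mitochondrial UMIs and the barcodes of 800 to 2000 UMIs were chosen after seeing the data. All values are log2 ratios of mutant over wild type unless named. The sarcomere, calcium handling, natriuretic and border zone, glycolysis, AP-1 and heat shock lists kept their direction under every alternative run, and oxidative phosphorylation did not. Depth limits genes under about 50 UMIs.

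The ratio of gated shares (0.533) was 0.358 with more than 500 genes, 0.420 at 50% mitochondrial UMIs, 0.282 at 8 times and 0.734 at 2 times the overall share, 0.247 with 20 UMIs, 0.324 with 5 genes, 0.634 with the share taken within each library, 0.323 without myl7 and 0.313 without cmlc1. The count of genes 2-fold lower (138) was 76 at 8 times, 58 scaled by the median of gene ratios, 61 thinned to 500 UMIs, 29 with 200 UMIs per gene, 3915 with no minimum, 260 at or below and 209 above 30% mitochondrial UMIs, 220 in barcodes of 800 to 2000 UMIs, and 259 and 289 in the bins of 8 to 16 and of 16 or more times (227 and 243 with 0.5 UMIs added to each sum). The count 2-fold higher (33) was 67 scaled by the median, 21 with 200 UMIs, 2421 with no minimum, 88 above 30% mitochondrial UMIs, and 76 and 83 in the same bins, with or without 0.5 added.

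The sarcomere list (-0.73) was -0.64 with more than 500 genes, -0.24 at 8 times, -0.93 at 2 times, -0.53 with 20 UMIs, -0.60 with 5 genes, -0.81 within each library, -0.41 scaled by the median, -0.79 thinned, -0.79 at or below and -0.90 above 30%, -0.91 in 800 to 2000 UMIs, and -0.99, -0.42 and -0.12 in the bins. Calcium handling (-0.53) was -0.12 at 8 times, -0.69 at 2 times, -0.40 with 20 UMIs, -0.21 scaled by the median, -0.65 in 800 to 2000 UMIs, -0.76 above 30%, and -0.70, -0.29 and -0.064 in the bins. Natriuretic and border zone genes (-0.67) were -0.22 at 8 times, -0.82 at 2 times, -0.45 with 20 UMIs, -0.54 with 5 genes, -0.75 within each library, -0.35 scaled by the median, -0.44 at or below and -0.80 above 30%, and -0.91, -0.40 and -0.061 in the bins. Glycolysis (-0.52) was -0.37 with more than 500 genes, -0.19 at 8 times, -0.71 at 2 times, -0.39 with 20 UMIs and with 5 genes, -0.60 within each library, -0.20 scaled by the median, -0.66 thinned, -0.72 at or below and -0.68 above 30%, -0.64 in 800 to 2000 UMIs, and -0.29 and -0.15 in the upper bins.

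Oxidative phosphorylation (0.17) reversed to -0.13 above 30% mitochondrial UMIs, -0.046 at 2 times, -0.023 as a mean over barcodes and -0.024 thinned to 500 UMIs, and the cause was not tested. It was 0.47 with more than 500 genes, 0.26 at 50%, 0.58 at 8 times, 0.50 with 20 UMIs, 0.40 with 5 genes, 0.060 within each library, 0.48 scaled by the median, 0.36 at or below 30%, 0.043 in 800 to 2000 UMIs, and 0.13, 0.54 and 0.55 in the bins. AP-1 (-0.58) was -1.13 at 8 times, -0.97 with 20 UMIs, -0.26 scaled by the median, and -0.92 and -1.41 in the upper bins. Heat shock (-0.81) was -0.54 at 8 times, -0.91 at 2 times, -0.73 with 20 UMIs, -0.49 scaled by the median, -0.72 at or below and -0.99 above 30%, -1.02 in 800 to 2000 UMIs, -0.93 in the lowest bin and -0.35 in the highest. Of 605 values of 32 single genes under these alternatives, 22 had the other sign, in 7 genes that were all under 2-fold. The log2 ratio of nppb kept its sign in 10 of 19 alternatives (-0.77 to 0.47), cox7a1 in 14 (-0.82 to 1.13), myh7l (-0.85 to 0.40), tnnt2a and pln in 17, and atp2a2a and cox6a2 in 18.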
